A study of Mus musculus with 6 samples.

Results

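The NF-kB family was examined here as 10 genes. They were the 5 Rel subunits Nfkb1, Nfkb2, Rel, Rela and Relb and 5 genes of the IkB (inhibitor) family, Nfkbia, Nfkbib, Nfkbie, Nfkbiz and Nfkbid. All 10 were found by symbol among the 52997 genes of the count table, and all 10 passed the filter on low counts that left 11681 genes for testing. The RNA was that of lymph node CD4+ T cells, which the series calls naive, from mice aged 10 days (infant) or 7 weeks (adult), with nodes of a mouse pooled, 1000 sorted cells per library and 3 libraries (1 mouse each) at each age. Both ages had the strain Foxp3-GFP (C57BL/6), in which cells that express the regulatory T cell factor Foxp3 carry a green fluorescent reporter, and the library titles call the sorted cells Tconv, read here as conventional T cells. No treatment is given for either age. The sources used here do not give the markers of the sort or the sex of the mice.

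NF-kB is a group of dimeric transcription factors assembled from the Rel subunits, which share a DNA-binding Rel homology domain. In resting T cells the dimers are held in the cytoplasm by the classical inhibitors IkB-alpha, IkB-beta and IkB-epsilon (Nfkbia, Nfkbib, Nfkbie), which are phosphorylated by the IKK kinases and degraded when the T cell receptor or a TNF-family receptor signals. Nfkb1 and Nfkb2 encode long precursors whose ankyrin repeats also act as inhibitors until they are processed. Nfkbiz and Nfkbid encode the atypical nuclear proteins IkB-zeta and IkBNS, which bind NF-kB dimers on chromatin. Several genes of the family are themselves NF-kB targets, Nfkbia being the textbook case of a feedback inhibitor.

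Totals were 4115742 to 4739304 counts in infant and 3421253 to 4887371 in adult libraries, and the 10 genes had 151 to 2135 counts in single libraries. Adult replicate 2 stood apart: 36373 genes had a count in it (17992 to 21840 genes elsewhere), and it held 1.85 counts per kb over protein-coding genes too low to test, where the remaining libraries held 0.186 to 0.349. At that density 0.196% (Nfkbia) to 8.50% (Nfkb1) of its counts of the 10 genes would be of this kind, and without it the same 3 genes were called (488 genes in all, against 425). Infant replicate 2 stood apart in genes of class II antigen presentation, with 63 counts of H2-Aa, 52 of H2-Ab1 and 47 of H2-Eb1, against 0 to 11 in any other library, and Cd74 at 17.7 CPM, against 1.14 to 4.70 elsewhere. Without it 0 of the 10 genes were called (139 genes in all, against 425), as was so without adult replicate 1 (185 genes in all). The log2 fold changes without infant replicate 2 were −0.58 for Nfkbia, −0.66 for Nfkbiz and −0.66 for Nfkb2 (edgeR adjusted p 0.0668 to 0.160). Summed T cell identity markers were 9772 to 10431 CPM in infant and 9192 to 10614 in adult libraries. Cd4 was at 856 to 876 CPM in infant and 857 to 1126 in adult libraries. Lyz2 and Cd8a were at most at 0.970 and 1.93 CPM in any library.

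Infant cells had less RNA of 3 of the 10 genes, the IkB genes Nfkbia and Nfkbiz and the subunit gene Nfkb2. The other 7 did not pass the test. The falls were modest: infant levels were 67.4% of adult levels for Nfkbia, 60.7% for Nfkbiz and 59.3% for Nfkb2. In these bulk libraries, fewer cells with a transcript and less of it per cell cannot be told apart. Of all tested genes, 3.64% were called in either direction, 2.11% lower and 1.52% higher in infant cells at an adjusted p under 0.05 (edgeR quasi-likelihood test, Benjamini-Hochberg adjustment over all 11681 genes). The count of 3 was 0 without infant replicate 2 or adult replicate 1, 1 without infant replicate 3 or adult replicate 3, 2 without infant replicate 1 and 3 without adult replicate 2. Before adjustment 7 of the 10 had a p under 0.05 in edgeR, as did 17.3% of all tested genes in either direction. Of these 7, Nfkbid was higher in infant cells and the rest were lower. In 8 of the 10 genes the 3 infant values lay wholly below the 3 adult values, an arrangement found in 11.6% of all tested genes, and in 0 of the 10 wholly above, found in 11.2%. The median log2 fold change, infant over adult, was −0.37 over the 10 genes, and −0.0017 over all tested genes. The 10 genes respond to common inputs and some regulate each other, so they are not independent observations.

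**Figure D1:**
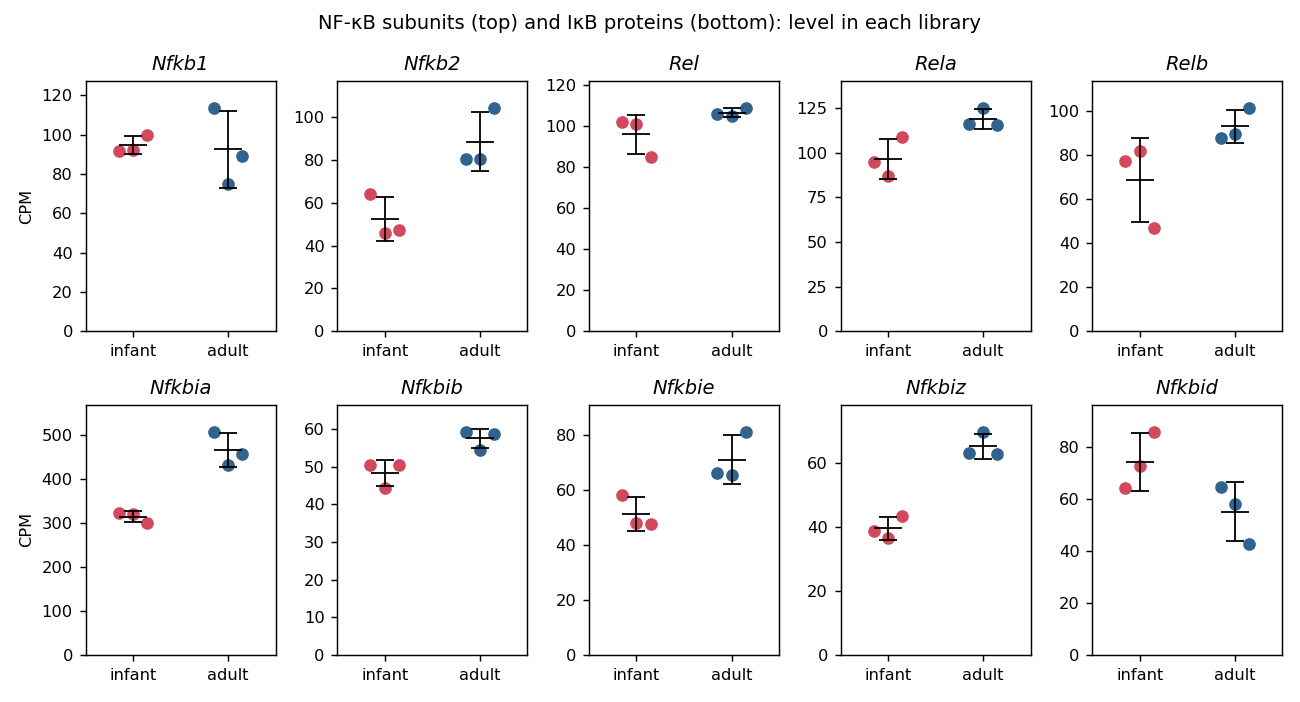
CPM (counts scaled to the size of a library) of the 5 Rel subunit genes (top) and the 5 IkB genes (bottom) in the 3 infant and 3 adult libraries, with each y axis starting at 0, points for libraries, and black bars for the mean ± SD. The infant points lie below all adult points in every panel except Nfkb1 and Nfkbid.

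The start-site sequences of the family are shown because several of them hold the 10-base kB motif to which Rel dimers bind, so that genes coding for the factor and genes carrying its motif overlap. The RefSeq promoter table (GRCm38.p6, 250 bases before the start and 50 bases from it) held 11 promoters of 7 of the genes, namely Nfkb2, Rel, Rela, Nfkbia, Nfkbib, Nfkbie and Nfkbid. The degenerate kB consensus, searched on both strands, was in 7 of the 11 promoters, belonging to 5 of the 7 genes (Nfkb2, Rel, Nfkbia, Nfkbie and Nfkbid), and in 8.46% of all 32851 promoters of the table. Matches on the 2 strands can overlap, so promoters rather than matches were counted, and the middle and most downstream windows of Nfkb2 overlap and share a match. No match stood in the windows of Rela and Nfkbib, or in the most upstream and most downstream windows of Nfkbid. Those windows of Nfkbid are not printed below. The windows of Nfkbia and Nfkb2, which fell, of Nfkbid, which did not pass the test, and of Nfkbib, which has no match, read as follows, 5′ to 3′ along the gene, with matches on either strand in capitals.
Nfkbia, chr12:55492598-55492897, minus strand: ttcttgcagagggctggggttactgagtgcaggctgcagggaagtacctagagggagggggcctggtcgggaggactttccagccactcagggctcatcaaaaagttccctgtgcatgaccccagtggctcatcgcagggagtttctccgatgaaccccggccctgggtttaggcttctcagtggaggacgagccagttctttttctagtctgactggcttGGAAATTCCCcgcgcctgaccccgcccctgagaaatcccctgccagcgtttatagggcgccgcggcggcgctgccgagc
Nfkb2, most upstream start, chr19:46304487-46304786, plus strand: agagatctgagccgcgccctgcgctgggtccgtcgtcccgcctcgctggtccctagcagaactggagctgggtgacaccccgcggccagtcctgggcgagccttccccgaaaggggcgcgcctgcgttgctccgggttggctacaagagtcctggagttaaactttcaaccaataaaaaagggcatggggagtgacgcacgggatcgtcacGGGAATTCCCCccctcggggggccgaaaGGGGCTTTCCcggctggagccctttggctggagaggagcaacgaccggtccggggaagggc
Nfkb2, middle start, chr19:46305445-46305744, plus strand: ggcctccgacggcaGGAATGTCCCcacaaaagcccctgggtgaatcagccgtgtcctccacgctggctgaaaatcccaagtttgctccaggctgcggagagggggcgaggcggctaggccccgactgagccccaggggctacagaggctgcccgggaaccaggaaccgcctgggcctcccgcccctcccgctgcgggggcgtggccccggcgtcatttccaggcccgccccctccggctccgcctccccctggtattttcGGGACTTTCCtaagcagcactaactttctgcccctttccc
Nfkbid, middle start, chr7:30422156-30422455, plus strand: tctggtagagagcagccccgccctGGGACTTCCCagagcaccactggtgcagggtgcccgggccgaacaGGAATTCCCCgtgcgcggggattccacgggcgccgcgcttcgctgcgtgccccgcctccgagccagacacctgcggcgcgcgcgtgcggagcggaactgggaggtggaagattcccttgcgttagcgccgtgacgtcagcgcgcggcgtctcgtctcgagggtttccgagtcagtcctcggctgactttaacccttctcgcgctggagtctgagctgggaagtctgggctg
Nfkbib, chr7:28766595-28766894, minus strand: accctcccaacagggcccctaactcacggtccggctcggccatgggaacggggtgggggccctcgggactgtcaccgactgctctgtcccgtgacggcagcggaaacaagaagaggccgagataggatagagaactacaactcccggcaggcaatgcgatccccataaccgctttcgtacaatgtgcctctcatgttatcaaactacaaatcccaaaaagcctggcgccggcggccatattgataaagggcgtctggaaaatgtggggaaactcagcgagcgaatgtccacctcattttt
In Nfkbia the match on the reverse strand read GGGAATTTCC and lay at bases −29 to −20 before the start. The middle start of Nfkb2 held GGGACTTTCC at bases 11 to 20 after it, and its most upstream start held GGGGCTTTCC at −11 to −2. These are matches of letters and not measured binding.

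Among the Rel subunits, Nfkb2 changed. This gene (chromosome 19, 46304320 to 46312385, mm10, plus strand) encodes the precursor of the subunit of the non-canonical pathway. It had 64.3, 45.7 and 47.3 CPM in infant libraries, against 80.7, 80.4 and 104 in adult libraries. The highest infant value, in infant replicate 1, lay below the lowest adult value, and adult replicate 3 stood highest. Its log2 fold change was −0.75 ± 0.17 (SE, edgeR adjusted p = 0.0233), with a 95% interval of −1.12 to −0.39. The call was lost without infant replicate 2 or 3 or adult replicate 1 or 3 (adjusted p 0.0652 to 0.160), with log2 fold changes of −0.82 to −0.62. Exons of Nfkb2 share 299 bases (6.52%) with the neighbouring gene Psd on the other strand, which the protocol does not separate, and Psd had 12 to 19 counts in infant and 21 to 26 in adult libraries. A further 531 bases (11.6%) are shared with a non-coding gene on the other strand, not analysed here.

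Relb, the partner of the Nfkb2 product in the non-canonical pathway, had 77.3, 81.7 and 46.9 CPM in infant libraries, against 87.8, 89.5 and 101 in adult libraries. The groups did not overlap, but infant replicate 3 stood far below the other 5 libraries. The log2 fold change of −0.44 ± 0.18 did not pass (edgeR adjusted p = 0.232, 95% interval −0.83 to −0.045), and without infant replicate 3 it was −0.23. Rela, the main activating subunit of the canonical pathway, had 94.6, 86.8 and 109 CPM in infant libraries, against 116, 125 and 116 in adult libraries. The log2 fold change was −0.30 ± 0.13 (adjusted p = 0.247, 95% interval −0.57 to −0.023), with no overlap between the ages.

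Rel, which encodes c-Rel, the lymphoid subunit, averaged 95.9 ± 9.62 CPM in infant and 106 ± 2.06 in adult libraries (SD, n = 3 each). The closest values, 102 in infant replicate 1 and 105 in adult replicate 2, nearly touched. With a log2 fold change of −0.15 ± 0.13 it did not pass (edgeR adjusted p = 0.603, 95% interval −0.42 to 0.12). Nfkb1, the precursor gene of the canonical pathway, averaged 94.7 ± 4.60 CPM in infant and 92.6 ± 19.7 in adult libraries, and the adult values of 114, 74.7 and 89.3 CPM enclosed all 3 infant values. Its log2 fold change was 0.031 ± 0.15 (adjusted p = 0.950), with an interval of −0.30 to 0.36, and it changed sign without infant replicate 3, adult replicate 2 or adult replicate 3 (lowest −0.098).

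The classical inhibitor Nfkbia (chromosome 12, 55489410 to 55492647, minus strand) had 323, 319 and 299.7 CPM in infant libraries, against 508, 432 and 456 in adult libraries. The 3 infant values lay close together, and the lowest adult value, in adult replicate 2, stood well above them. The log2 fold change was −0.57 ± 0.10 (edgeR adjusted p = 0.00669, 95% interval −0.79 to −0.35). The call was lost without infant replicate 2 or 3 or adult replicate 1 (adjusted p 0.0557 to 0.0668), and the adjusted p was lowest without adult replicate 2 (−0.62, adjusted p = 0.00250). Nfkbie, which encodes IkB-epsilon, had 58.2, 47.9 and 47.6 CPM in infant libraries, against 66.2, 65.3 and 81.2 in adult libraries, without overlap. Its log2 fold change was −0.47 ± 0.16 and did not pass (adjusted p = 0.125, unadjusted p = 0.00944). Nfkbib, which encodes IkB-beta, averaged 48.5 ± 3.44 CPM in infant and 57.6 ± 2.63 in adult libraries (log2 fold change −0.25 ± 0.15, adjusted p = 0.445, 95% interval −0.57 to 0.074). Exons of Nfkbib share 314 bases (14.5%) with Ccer2, which had 0 counts in every library, and 42 bases (1.94%) with Sirt2, which had 333 to 406 counts in infant and 255 to 381 in adult libraries, both on the other strand.

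The atypical IkB genes took different values. Nfkbiz (chromosome 16, 55811375 to 55838899, minus strand) had 38.7, 36.5 and 43.5 CPM in infant libraries, against 63.0, 69.9 and 62.8 in adult libraries, a clear gap with tight replicates. Its log2 fold change was −0.72 ± 0.15 (edgeR adjusted p = 0.0183, 95% interval −1.05 to −0.39), and the call was lost without infant replicate 1 or 2 or adult replicate 1 or 3 (adjusted p 0.0530 to 0.120). Nfkbid (chromosome 7, 30421732 to 30428746, plus strand) had 64.1, 72.6 and 86.0 CPM in infant libraries, against 64.7, 58.0 and 42.5 in adult libraries. Infant replicate 1 lay just below adult replicate 1, so the groups overlapped. Its log2 fold change of 0.43 ± 0.18 did not pass (adjusted p = 0.219, 95% interval 0.053 to 0.81), and it was 0.27 without adult replicate 3. A log2 ratio of Nfkbid to Nfkbiz counts within a library, chosen after these values were seen and therefore not tested, was 0.73, 0.99 and 0.98 in infant libraries, against 0.038, −0.27 and −0.56 in adult libraries.

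**Figure D2:**
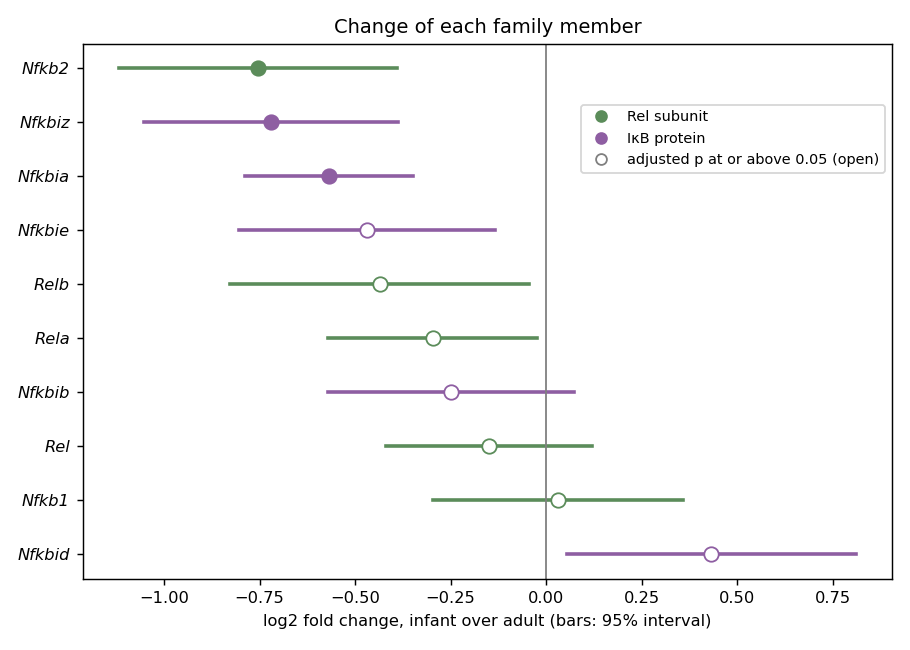
Log2 fold change, infant over adult, of the 10 genes in edgeR, with bars for the 95% interval, green for Rel subunits, purple for IkB genes and filled points at an adjusted p under 0.05. Nfkb2, Nfkbiz and Nfkbia are the 3 filled points, from −0.75 to −0.57, and Nfkbid has the highest value, 0.43.

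**Figure D3:**
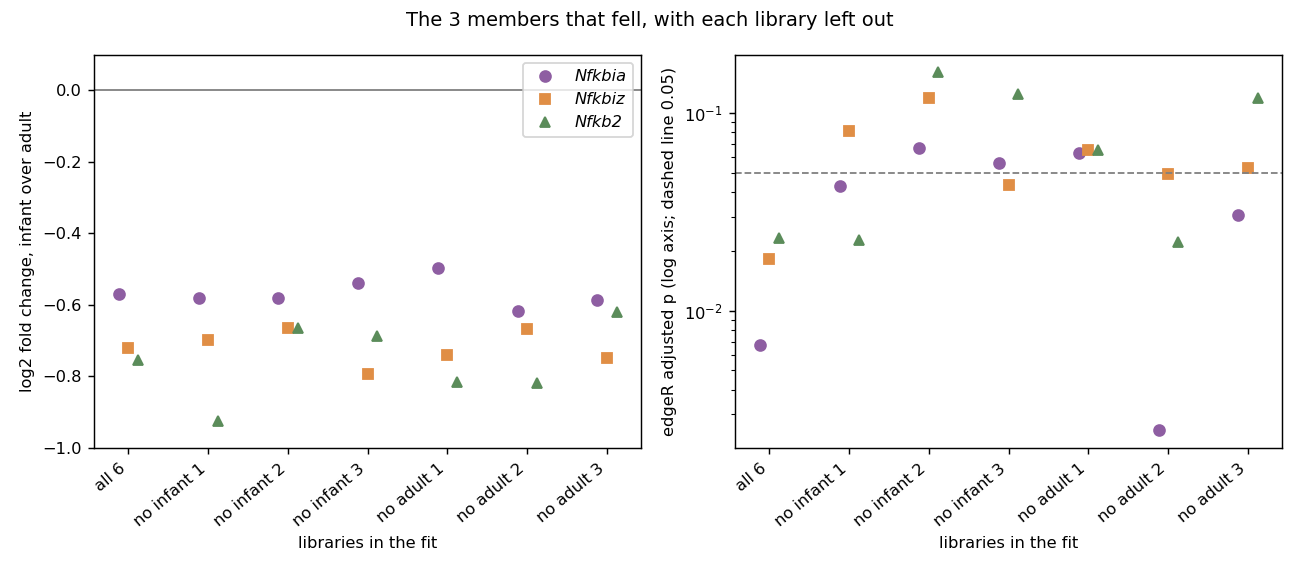
Log2 fold change (left) and edgeR adjusted p on a log axis (right) of Nfkbia, Nfkbiz and Nfkb2 in the fit of all 6 libraries and in the fits that leave out 1 library. The log2 fold changes stay between −0.92 and −0.50, while 11 of the adjusted p lie above the dashed line at 0.05.

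Ratios of counts within a library do not depend on the scaling between libraries. The log2 ratio of Nfkb2 to Nfkb1 was −0.51, −1.02 and −1.08 in infant libraries, against −0.49, 0.11 and 0.23 in adult libraries, a difference of −0.81 in which infant replicate 1 and adult replicate 1 nearly met. The log2 ratio of Nfkbia to Nfkbib was 2.68, 2.84 and 2.57 in infant libraries, against 3.10, 2.99 and 2.96 in adult libraries, a difference of −0.32 without overlap. Both gave the smallest p that 3 against 3 allows (exact permutation test, two-sided p = 0.1, adjusted p = 0.2 over 4 ratios), which cannot pass 0.05. The ratios of Rel to Rela and of Relb to Rela overlapped between the ages, with differences of 0.15 (exact permutation p = 0.5) and −0.17 (exact permutation p = 0.9), and the difference for Relb to Rela was 0.17 without infant replicate 3.

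Levels of different genes were compared per kb of exon, with the exons of all annotated transcripts of a gene merged. The merged length ran from 1610 bases (Nfkbia) to 12061 (Nfkb1) and can exceed that of the transcript in use. Ranks, shares and sums of these levels depend on it. Nfkbia was by far the most abundant, at 195 ± 7.72 CPM per kb in infant and 289 ± 24.1 in adult libraries, and made up 54.9 ± 1.33% of the summed level of the 10 genes in infant and 60.3 ± 1.80% in adult libraries. In infant libraries Nfkbid (31.6 ± 4.71 CPM per kb) and Rela (31.5 ± 3.65) came next and overlapped. In adult libraries Rela came next at 38.7 ± 1.78, above the range of all lower genes. Nfkbid, at 23.5 ± 4.85, stood lower, with a mean just below that of Relb. Its adult range overlapped those of Nfkbib, Relb, Nfkbie and Nfkb2, so its rank among these is not settled. Nfkb1, with the longest merged exons, was lowest per kb at both ages, at 7.85 ± 0.381 CPM per kb in infant and 7.68 ± 1.63 in adult libraries. On this measure it overlapped Nfkbiz in infant but not in adult libraries. In CPM it was not lowest, at 94.7 in infant and 92.6 in adult libraries, against 39.6 and 65.2 for Nfkbiz. The summed level of the 3 classical inhibitor genes was 234 ± 8.88 CPM per kb in infant and 339 ± 24.9 in adult libraries, and that of the 5 Rel subunits was 81.3 ± 4.31 in infant and 104 ± 3.96 in adult libraries. The ratio of these sums was 2.82, 2.92 and 2.90 in infant libraries, against 3.59, 3.10 and 3.11 in adult libraries, given as a description. RNA levels do not measure the proteins, whose amounts depend on degradation and processing.

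**Figure D4:**
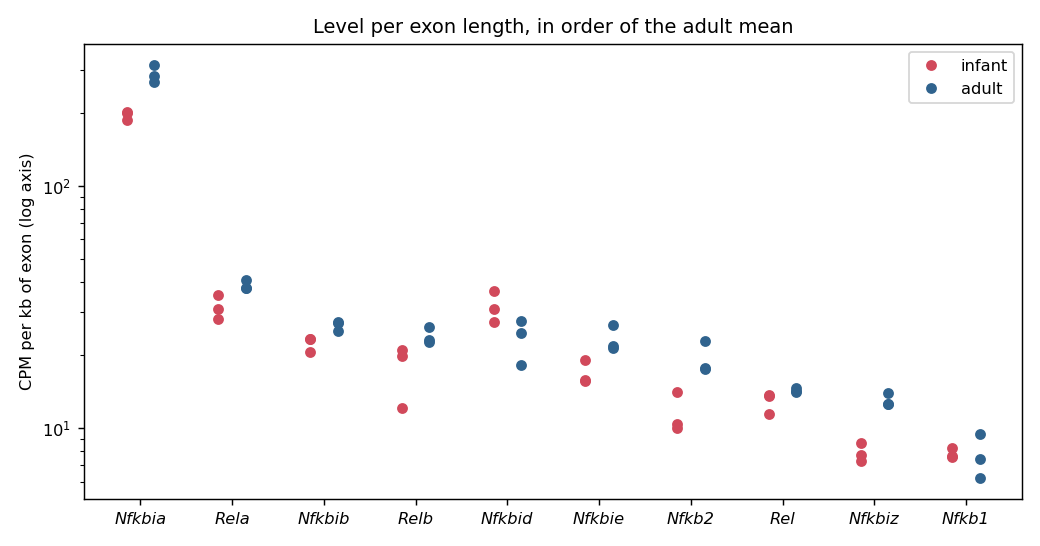
CPM per kb of exon on a log axis for the 10 genes in the 3 infant (red) and 3 adult (blue) libraries, ordered by the adult mean. Nfkbia stands apart from the other 9 genes at both ages. Nfkbid has rank 2 by infant mean, where it overlaps Rela, and rank 5 by adult mean, where it overlaps Nfkbib, Relb, Nfkbie and Nfkb2.

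The rest of the pathway was read from lists by role, chosen with earlier results of these data known. Of all tested genes, 3.64% were called in edgeR and 17.3% had an unadjusted p under 0.05, so 0 calls in a list of 9 to 17 genes is near that share. Of 12 tested genes of the IKK complex and its activating kinases, 0 were called in either direction (edgeR), 2 had an unadjusted p under 0.05, and the median log2 fold change was 0.11. In 3 of the 12 the infant values lay wholly above the adult values, found in 11.2% of all tested genes, and in 0 wholly below, found in 11.6%. The highest of the 12 in CPM, which is not corrected for length, was Ikbkb, which encodes the kinase IKK-beta. It was at 536 ± 13.2 CPM in infant and 467 ± 18.9 in adult libraries (0.20 ± 0.095 on the log2 scale, edgeR adjusted p = 0.301). Ikbke, an IKK-related kinase gene, had a log2 fold change of 0.14 ± 0.12. Of 9 tested genes of the ubiquitin machinery that marks IkB proteins for degradation, 0 were called and 0 had an unadjusted p under 0.05 (median 0.11), with Skp1a, a ligase subunit gene, at 0.14 ± 0.11 and Ube2d3, a conjugating enzyme gene, at 0.22 ± 0.13. Of 17 tested deubiquitinases and feedback inhibitors, 0 were called and 3 had an unadjusted p under 0.05 (median −0.067), with the highest in CPM, Nlrc5 and Nlrc3, at −0.067 ± 0.13 and 0.30 ± 0.11, and 1 of the 17 was called higher in infant cells without adult replicate 2. Bcl3, the remaining IkB family gene examined, had 9.84, 7.26 and 7.97 CPM in infant libraries, against 13.3, 9.94 and 15.8 in adult libraries (−0.64 ± 0.32, adjusted p = 0.331).

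Receptor and adaptor genes upstream of NF-kB had 1 call in each direction among 16 tested (median −0.12), against 2.11% lower and 1.52% higher of all tested genes. An unadjusted p under 0.05 was found for 3 of the 16 (17.3% of all tested genes). In 3 of the 16 the infant values lay wholly below the adult values and in 2 wholly above (11.6% and 11.2% of all tested genes). Il18r1, a chain of the interleukin 18 receptor, fell to 26.7 ± 2.84 CPM in infant libraries, against 50.6 ± 5.44 in adult libraries (−0.92 ± 0.18 on the log2 scale, edgeR adjusted p = 0.0106), and lost its call without infant replicate 2 or 3. Tnfrsf13b, which encodes the TNF-family receptor TACI, best known from B cells, was at 109 ± 5.12 CPM in infant and 73.2 ± 7.82 in adult libraries (0.57 ± 0.13, adjusted p = 0.0266), and of the 6 fits with a library left out kept its call only in that without adult replicate 2. In that fit 2 receptor genes were called lower.

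Among 34 genes described as NF-kB targets in lymphoid cells, 27 could be tested, of which 4 fell, 1 rose and 22 did not pass (median −0.12). Of all tested genes 2.11% fell and 1.52% rose. An unadjusted p under 0.05 was found for 9 of the 27 (17.3% of all tested genes). In 7 of the 27 the infant values lay wholly below the adult values and in 3 wholly above (11.6% and 11.2% of all tested genes). Traf1, a signalling adaptor, had 66.4, 70.6 and 79.9 CPM in infant libraries, against 274, 242 and 269.6 in adult libraries, a log2 fold change of −1.86 ± 0.12 (adjusted p = 1.05e-06 in edgeR). Ltb, which encodes lymphotoxin-beta, had 608, 672 and 654 CPM in infant libraries, against 1057, 1250 and 1154 in adult libraries (−0.84 ± 0.099, adjusted p = 2.69e-04). Both kept their calls without any single library. Icam1, an adhesion molecule gene, was at −0.99 ± 0.20 and Cd83, a surface glycoprotein gene, at −2.16 ± 0.46, and these calls were lost in 4 and 5 of the 6 fits with a library left out. The 1 target that rose, Cd69, an early activation marker gene named after its value was seen, was at 325 ± 20.3 CPM in infant and 213 ± 47.0 in adult libraries (0.61 ± 0.14, adjusted p = 0.0255), with the call lost in 4 of those fits. The 4 calls of lower targets became 2 without infant replicate 2, infant replicate 3 or adult replicate 1, and that of Cd69 was lost without infant replicate 1, 2 or 3 or without adult replicate 3.

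**Figure D5:**
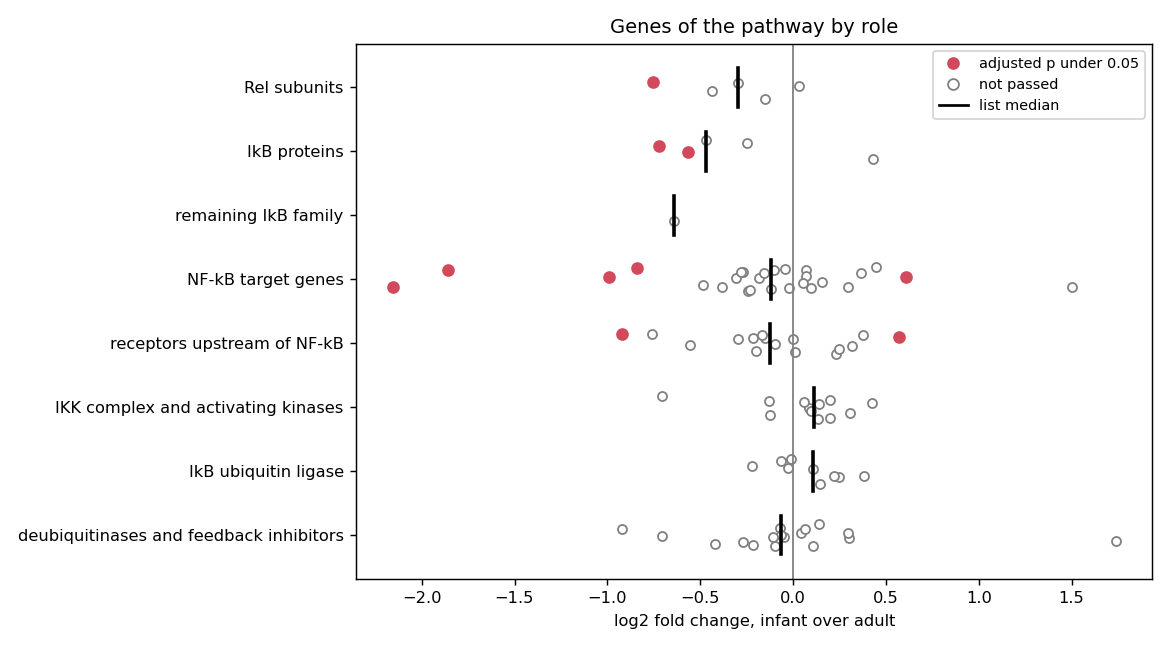
Log2 fold change, infant over adult, of the tested genes of each list (1 point per gene, red at an edgeR adjusted p under 0.05, black bar for the list median). Red points stand in the subunit, IkB, target and receptor lists, and none in the IKK, ubiquitin ligase or feedback lists.

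By likeness of pattern, the 5 tested genes outside these lists whose log2 CPM followed Nfkbia most closely over the 6 libraries included Nae1, Selenop, Klf6 and Dleu2 (Pearson r of 0.990 to 0.993, a description over 6 points that share the split by age). Klf6, a Kruppel-like factor gene, was at 77.5 CPM in infant and 152 in adult libraries.

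Some markers of other cells or states moved with age, and their part in the results was not tested. The 6 regulatory T cell genes summed to 197 to 229 CPM in infant and 255 to 274 in adult libraries, with 0 of 6 called, and their defining gene Foxp3 was at 6.53 to 9.18 CPM in infant and 4.49 to 6.25 in adult libraries. Most of the sum was Izumo1r (104 to 138 CPM in infant, 125 to 159 in adult libraries) and Tnfrsf18 (65.0 to 71.6 in infant, 78.4 to 111 in adult libraries). Of the 6, 4 had a negative log2 fold change, and Foxp3 (0.45) and Ikzf2 (0.55) a positive one. The 6 natural killer cell genes summed to 7.75 to 10.2 CPM in infant and 16.7 to 35.5 in adult libraries, with the defining gene Ncr1 at 0 counts in every library. The value of 35.5 was that of adult replicate 2, which held 18 counts of Klrb1c, 12 of Nkg7 and 10 of Gzmb, against 0 to 2 in any other library. Most of the sum was the gene given next, so the 2 are not separate results. The 1 natural killer cell gene that could be tested, Klrd1, a lectin-like receptor gene, had 6.91, 8.71 and 7.73 CPM in infant libraries, against 24.2, 21.6 and 13.2 in adult libraries, a fall without overlap (−1.33 ± 0.31 on the log2 scale, edgeR adjusted p = 0.0255). Of the 6 fits with a library left out, it kept this call only in that without adult replicate 3 (log2 fold changes −1.56 to −1.15). Y-linked genes were at or near 0 at both ages, and Xist was at 576 to 669 CPM in infant and 362 to 480 in adult libraries. Each of these 3 sums gave the smallest possible p (exact permutation test, two-sided p = 0.1, adjusted p = 0.367 over 11 lists). The response to cell handling is known to include Nfkbia and Nfkbiz. Of 9 tested genes of this response, 2 fell, Btg2 (−0.55 ± 0.11) and Junb (−0.49 ± 0.12), and 1 rose, Egr1 (0.69 ± 0.14, edgeR adjusted p = 0.0116). Of all tested genes 2.11% fell and 1.52% rose. In 3 of the 9 the infant values lay wholly below the adult values and in 3 wholly above (11.6% and 11.2% of all tested genes). The median log2 fold change of the 9 was −0.040. With a library left out, Junb was called in 0 of the 6 fits, Btg2 in 3 (lost without infant replicate 2 or 3 or adult replicate 1) and Egr1 in 3 (lost without infant replicate 1 or 3 or adult replicate 1). The summed level of the handling genes, 660 to 811 CPM in infant libraries, overlapped the 732 to 928 of adult libraries. The sums for 6 further lists overlapped between the ages. They were 713 to 807 CPM in infant and 716 to 841 in adult libraries for B cells (of which Ighm alone made 665 to 793 in infant and 692 to 822 in adult libraries), 54.2 to 75.2 in infant and 53.6 to 106 in adult libraries for myeloid cells, and 32.0 to 41.8 in infant and 31.3 to 36.5 in adult libraries for CD8 T cells. The myeloid value of 106 was that of adult replicate 2. Most of the CD8 sum was Cd8b1, at 32.0 to 40.1 CPM in infant and 30.7 to 36.5 in adult libraries. Gamma-delta T cell genes summed to 3.63 to 7.97 CPM in infant and 6.20 to 8.24 in adult libraries, effector or memory genes to 147 to 181 in infant and 167 to 216 in adult libraries, and stromal, endothelial and red cell genes to 376 to 391 in infant and 320 to 395 in adult libraries. Nearly all of the last sum was Pecam1, at 372 to 389 CPM in infant and 308 to 395 in adult libraries. Gata3 and Cd44 made up most of the effector or memory sum. Their log2 fold changes were −0.13 ± 0.17 and 0.38 ± 0.20, both with overlap between the ages. Of the 4 tested genes of this list 0 were called in edgeR. The unadjusted p was under 0.05 for 2, Prdm1 and Itgb1, as for 17.3% of all tested genes. In both the infant values lay wholly below the adult values, as in 11.6% of all tested genes. Prdm1, a transcription factor gene of effector cells, was at 3.86 to 7.50 CPM in infant and 11.3 to 15.9 in adult libraries (−1.09 ± 0.36 on the log2 scale, adjusted p = 0.121), and Itgb1, an integrin gene, at 8.94 to 11.5 in infant and 13.0 to 23.3 in adult libraries (−0.80 ± 0.29, adjusted p = 0.172).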

How the data were processed

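RNA of 3 infant and 3 adult libraries was analysed. The submitters' processing notes name STAR 2.5.4, featureCounts and the build mm10. The annotation and the handling of multiply matching reads are not stated in the sources. The deposited values are raw counts per gene symbol from paired 25-base reads without molecular identifiers, so counts include PCR copies. Reads of a gene and of a partner on the other strand cannot be told apart, since the labels' protocol marks no strand.

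Genes passing filterByExpr (minimum count 10, minimum total 15) entered edgeR 4.0.16 under R 4.3.3 (TMM, quasi-likelihood F test, Benjamini-Hochberg adjustment over all 11681 genes, threshold 0.05), without covariates. Standard errors were derived from the F statistic, and 95% intervals from its total degrees of freedom (residual plus the prior that edgeR estimates over all genes). CPM are relative to tested-gene totals times TMM factors. Exon lengths, with the exons of all transcripts of a gene merged, and positions came from GENCODE M21. In a simulation on 11445 of these genes the infant against adult fit found 72.9% of genes changed 2-fold and 100% of those changed 4-fold, with 5 false calls. Every simulated gene had the same biological spread (coefficient of variation 0.184), and the changed genes were drawn at random over all levels. Replicates were more different than counting noise allows (5.40 to 11.5 chi-square units per degree of freedom). Labels give 1 mouse per replicate.

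The members and lists were chosen with earlier results of these data known. All 10 members were named, and from each other list up to 4 passing genes of smallest p, or the 2 of highest CPM. Alternatives were other scalings, filters, DESeq2 1.42.0, limma-voom 3.58.1, a replicate block, thinning and leaving out each library. Protein sequences were not used here, and some withheld results are not reported here.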

Additional observations from a re-analysis of the deposited data

How the results depend on the processing

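Nfkbia, Nfkbiz and Nfkb2 were the members called, all lower in infant cells, with limma-voom, the DESeq2 Wald test, a replicate block, thinning to the smallest library, 3 other scalings (by library totals, by upper quartiles, by DESeq2) and 2 other filters (none, or a stricter one asking for a mean of 20 counts and for 10 in at least 3 libraries), and no member was called higher under any of these or with a library left out. With 1 library left out, 0 to 3 members were called lower: 0 without infant replicate 2 or adult replicate 1, 1 without infant replicate 3 or adult replicate 3, 2 without infant replicate 1 and 3 without adult replicate 2. Over these 6 fits all genes called numbered 139 to 488 (84 to 271 lower, 55 to 217 higher, against 247 and 178), the targets called 2 to 3 lower and 0 to 1 higher, the receptors 0 to 2 lower and 0 to 1 higher, and the feedback genes 0 to 1 higher. The log2 fold change of Nfkb1 ran from −0.098 to 0.21, with −0.013 and −0.00045 without infant replicate 3 and adult replicate 3, and the difference in the Relb to Rela ratio from −0.39 to 0.17. DESeq2 called 268 genes higher in infant cells. With no filter 1 feedback gene was called lower, and with the stricter filter 2 targets were called higher and 2 receptors lower. The causes were not tested. With the replicate block 326 genes were called and 1 feedback gene was called lower, and no call of a member changed. Same-numbered libraries did not deviate together (correlations of −0.057, −0.0072 and −0.10), which gave no sign of a pairing by number. Deviations from a mean of only 3 libraries cannot exclude a pairing.

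Each member had at least 151 counts in each library. With 3 against 3 libraries 72.9% of simulated 2-fold changes were found. That simulation gave every gene the same biological spread and drew the changed genes from all levels, so it does not give the rate for the members. The falls of the 3 members were smaller than 2-fold, so a member that did not pass is not shown to be alike at both ages.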
